A study of Oryza sativa with 20 samples.

Results

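The response of rice stem bases to induced CRL1 was followed from 4 h to 8 h by setting the dexamethasone change at 8 h against that at 4 h within each of 3 transgenic lines. The comparison used 12 of the 20 arrays of the series, which are the mock and dexamethasone arrays of DEX::CRL1 lines 1, 2 and 3 at both times. All plants, controls included, carried the crl1 mutation in the cultivar Taichung 65. The 3 CRL1 lines carried pINDEX2-CRL1, in which dexamethasone switches on the CRL1 coding sequence, and they descended from separate transformation events. Among the 2 control lines, control line 1 was the mutant without a transgene and control line 2 carried empty pINDEX2. Seedlings were 8 days old and received 10 µM dexamethasone or, as mock, 0.5‰ ethanol. Each of the 4 groups of CRL1 arrays (mock 4 h, dexamethasone 4 h, mock 8 h and dexamethasone 8 h) held 3 arrays, 1 per line, and each control group held 2. The groups are limited as a model in that the CRL1 lines had been chosen for inducing CRL1 and for making crown roots after dexamethasone, and in that each array pooled the RNA of 20 stem bases. The lines are the replicates. Line was fitted as a block, which takes out constant differences between lines. The p-values therefore measure how unevenly the lines varied across conditions, pooled over all arrays of a fit. The study sought genes that CRL1 turns on early, and this comparison asks which transcripts responded differently at the later time.

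CRL1 is a LOB-domain transcription factor that acts downstream of auxin, and rice plants without it make few or no crown roots, the roots that arise from the stem base. A regulator switched on by a drug acts first on its direct targets, and transcripts that lie further downstream follow. Crown root initiation is known to involve the homeobox gene QHB in the future root tip, WOX11 and cytokinin response regulators, auxin signalling, loosening of cell walls and renewed cell division.

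Array signals are MAS5 values on a linear scale, with a 2% trimmed mean of 100 on every array and a median of 10.1 to 12.6 on the 12 CRL1 arrays. No probe set was matched to CRL1, so the induced gene could not be followed here. The dexamethasone array of CRL1 line 2 at 8 h correlated least with the other CRL1 arrays (mean r = 0.935 on the log2 scale, against 0.950 to 0.963 for the other 11). A mixed tissue was measured, so a change in a transcript per cell and a change in the number of cells that hold it cannot be told apart.

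Below, "change" means log2 dexamethasone minus log2 mock within a line, and "difference" means the change at 8 h minus the change at 4 h. Of 31057 probe sets tested, 13 were called for the difference at an adjusted p under 0.05 (0.0419%), 12 of them higher (0.0386%) and 1 lower (0.00322%). The 12 had a median difference of 2.20 and ranged from 1.21 to 7.04. They included the cell wall glucanase gene Cel9A, the MYB factor gene MYBS2 through 2 probe sets and the calcium pump gene ACA5, and the other members were known by locus number only or had no listed gene. All 13 were also called for the change at 8 h, and 5 were called for the change at 4 h. Over all probe sets tested the shares called were 10.6% at 8 h and 0.969% at 4 h. Both changes are parts of the difference that chose the 13, so these counts are not separate support. For all 13 the 3 changes at 8 h did not overlap the 3 changes at 4 h. The calls were made from these same changes, so the lack of overlap is not separate support. Its share over all probe sets tested was not counted. Testing the 3 within-line differences alone raised the count to 126, with 85 higher and 41 lower and all 13 among them, when the variance was modelled on the mean signal, and gave 0 calls without that trend. Without CRL1 lines 1, 2 and 3 in turn the count was 0, 0 and 1, and the last was not among the 13.

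**Figure D1:**
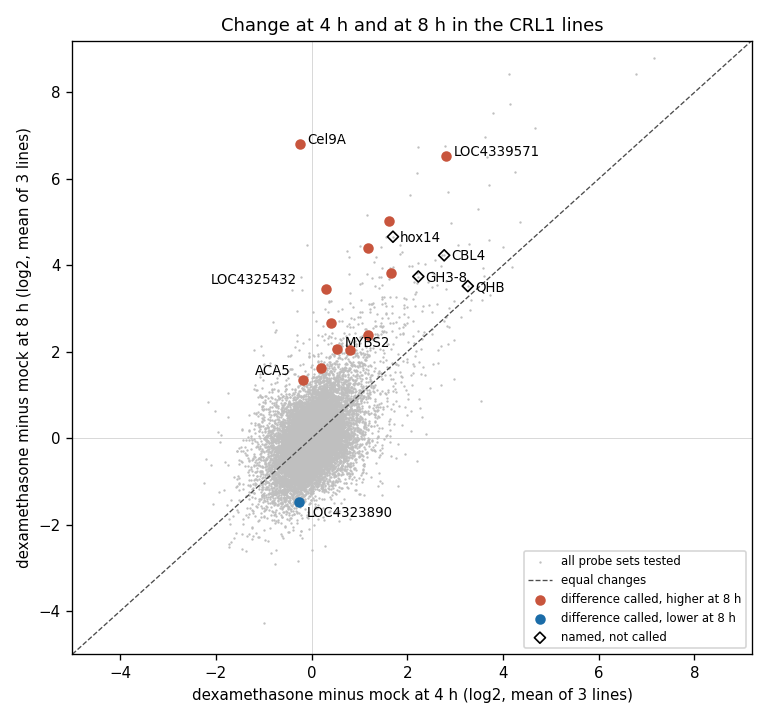
The change at 4 h (x axis) and at 8 h (y axis) in the CRL1 lines, both as log2 dexamethasone minus mock averaged over 3 lines; each grey point is 1 of 31057 probe sets, filled circles are the 13 called for the difference and open diamonds are named genes that were not called. The called points lie away from the dashed line of equal changes, with Cel9A near 0 at 4 h and at 6.80 at 8 h, while QHB lies close to that line.

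Cel9A encodes an endo-1,4-beta-glucanase, an enzyme that cuts glucan chains of the cell wall. Its signals in CRL1 lines 1, 2 and 3 were 5.3, 4.3 and 1.3 after mock at 4 h, 3.8, 2.8 and 1.4 after dexamethasone at 4 h, and 2.9, 3.7 and 1.2 after mock at 8 h. After dexamethasone at 8 h they were 268.5, 546.1 and 671.7. Only the 3 dexamethasone arrays at 8 h were above the array median, and they did not overlap the other 9. The change was -0.24 at 4 h (adjusted p = 0.952, limma) and 6.80 at 8 h (adjusted p = 1.15e-05), and the difference was 7.04 ± 0.605 (SE, 3 lines; adjusted p = 0.00264). Cel9A passed the filter on dim signals through the same 3 arrays in which it was high, so its test was not independent of that filter. The adjusted p was 0.00435 with no filter, and 0.0691, no longer called, with the stricter filter (75th percentile). The size rests on dim signals, at 7.95 when nothing was added before the logarithm and 5.12 when the median signal was added. The 8 control arrays read 0.4 to 8.1, all dim.

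MYBS2 encodes a MYB transcription factor known in rice for binding a sugar response element of alpha-amylase genes. Signals of its brighter probe set were 691.0, 640.9 and 757.2 after mock at 4 h and 898.8, 1120.2 and 1019.0 after dexamethasone at 4 h. At 8 h they were 493.5, 461.2 and 557.9 after mock and 1835.7, 2224.7 and 2316.8 after dexamethasone. Dexamethasone arrays were above mock arrays in every line at both times, with a wider gap at 8 h. The change was 0.54 at 4 h (adjusted p = 0.0536, limma) and 2.07 at 8 h (adjusted p = 4.59e-06). The difference was 1.53 ± 0.16 (adjusted p = 0.0109), with 1.51, 1.46 and 1.62 in the 3 lines. The second probe set of MYBS2 gave a difference of 1.24 ± 0.17 (adjusted p = 0.0347) from dimmer signals of 39.8 to 207.8. There the change was also called at 4 h, at 0.81 (adjusted p = 0.00903).

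ACA5, named for the autoinhibited calcium ATPases that pump calcium out of the cytosol, was measured at 367.1, 675.1 and 359.4 after dexamethasone at 8 h. Its other 9 CRL1 arrays lay between 149.0 and 207.4. The 3 late dexamethasone arrays stood apart from these, and line 2 was the highest. The change was -0.18 at 4 h (adjusted p = 0.824, limma) and 1.35 at 8 h (adjusted p = 2.60e-04), with a difference of 1.54 ± 0.20 (adjusted p = 0.0347) and 1.36, 1.77 and 1.48 in the 3 lines. The control lines parted, with a difference of -0.27 in control line 1 and 1.09 in control line 2, which carried the empty vector. The CRL1 difference of ACA5 was not shown to exceed that of the control lines (adjusted p = 1.0).

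Of the members known by locus number only, LOC4325432 had the lowest adjusted p of the comparison (0.0018, limma), with a difference of 3.16 ± 0.24. Its signals were 166.7, 388.3 and 194.1 after dexamethasone at 8 h, against 15.9, 32.4 and 14.5 after mock at 8 h. At 4 h they were 41.7, 58.9 and 29.9 after dexamethasone and 30.7, 47.3 and 26.4 after mock. Across lines, the arrays at 4 h overlapped between treatments and those at 8 h did not. Within every line the dexamethasone signal was above the mock signal at both times. After mock the signal was lower at 8 h than at 4 h in every line, so both arms widened the difference.

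LOC4345932 showed a similar course, with signals of 914.6, 1843.6 and 895.6 after dexamethasone at 8 h and 164.3 to 340.6 on the other 9 CRL1 arrays. Its difference was 2.24 ± 0.27 (adjusted p = 0.0277, limma). The late dexamethasone arrays again stood above all others, and the change at 4 h was not called (0.41, adjusted p = 0.549).

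LOC4339571 and LOC4324860 had already risen at 4 h and rose further. LOC4339571 read 64.9, 70.3 and 19.4 after dexamethasone at 4 h and 653.9, 1227.5 and 225.1 at 8 h, while its 6 mock arrays lay between 2.1 and 7.8. Its change was 2.82 at 4 h and 6.54 at 8 h, and the difference was 3.72 ± 0.47 (adjusted p = 0.0347, limma). The mock signals of LOC4339571 were below the array medians. It thus passed the filter on dim signals through its dexamethasone arrays, and its test was not independent of that filter. The adjusted p (limma) was 0.047 with no filter and 0.0685, no longer called, with the stricter filter (75th percentile). For LOC4324860 the change went from 1.66 to 3.82, with a difference of 2.16 ± 0.26 (adjusted p = 0.0277), and its signals after dexamethasone went from 414.1, 356.3 and 194.8 at 4 h to 1095.8, 1210.6 and 717.0 at 8 h. In both genes line 3 was the lowest of the 3 dexamethasone arrays at each time. LOC4331438 read 41.0, 72.8 and 61.4 after dexamethasone at 4 h and 308.4, 546.1 and 550.1 at 8 h, with 13.9 to 26.9 on its mock arrays, and had a difference of 3.22 ± 0.38 (adjusted p = 0.0277).

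2 members had no listed gene. Probe set OsAffx.14853.1.S1_at had a difference of 3.42 ± 0.44 (adjusted p = 0.0347, limma) from mock signals of 1.1 to 14.6. Its size was 4.06 with nothing added before the logarithm and 2.27 with the median signal added, and the call held in 4 of 13 other settings. It was lost with the median signal added (adjusted p = 0.0526), with no filter (0.0506) and in the fit of 20 arrays (0.0963), among others. Os.20548.1.S1_at had a difference of 1.42 ± 0.20 (adjusted p = 0.0457). For this probe set, the 4 arrays of control line 1 read 193.7 to 353.9, above the 8 h dexamethasone arrays of all CRL1 lines (133.1, 175.3 and 137.9), while control line 2 read 53.4 to 73.6. The untransformed line thus stood apart in this transcript whatever the treatment.

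The only member called lower was LOC4323890. Its signals were 200.8, 147.6 and 184.1 after dexamethasone at 8 h and 410.9 to 570.0 on the other 9 CRL1 arrays, with no overlap. The change was -0.26 at 4 h (adjusted p = 0.532, limma) and -1.48 at 8 h (adjusted p = 4.13e-05), and the difference was -1.23 ± 0.16 (adjusted p = 0.0347). The probe set ends in _s_at, a type that can hybridise with more than 1 transcript.

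**Figure D2:**
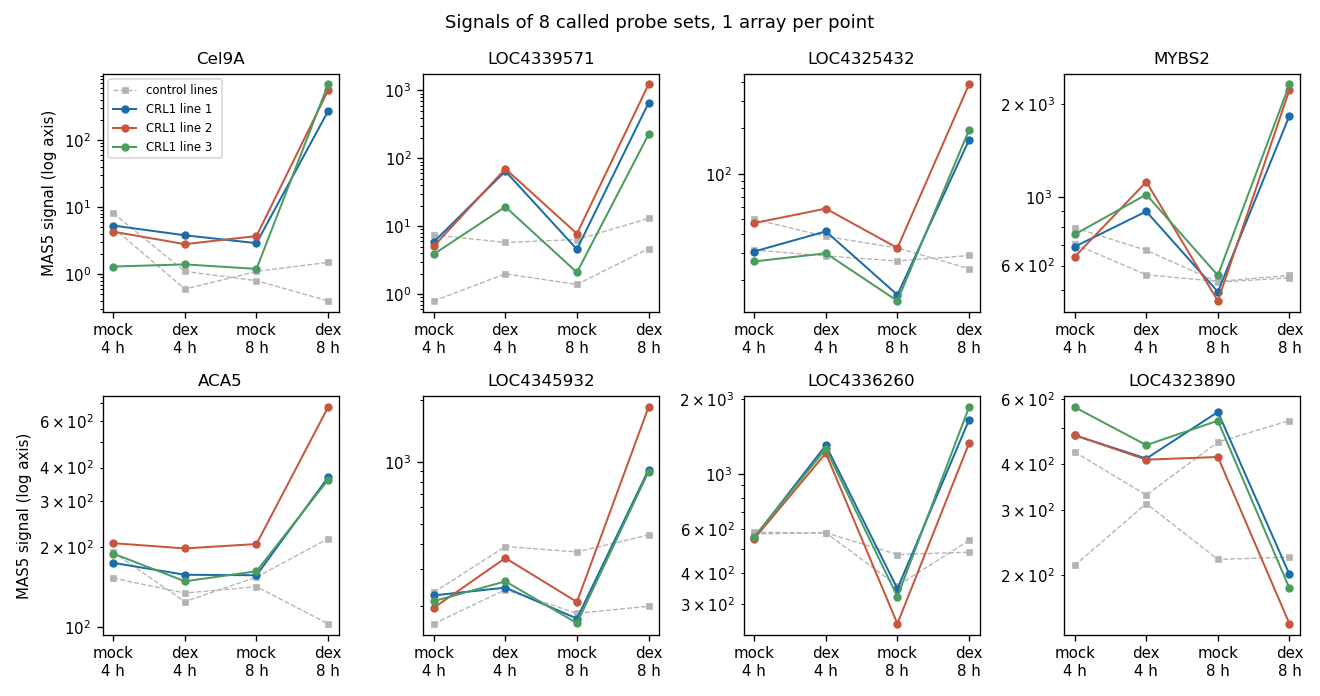
MAS5 signal on a log axis for 8 called probe sets (8 genes, the probe set with the smallest p for MYBS2) in each of 4 conditions; coloured circles are the 3 CRL1 lines, grey squares the 2 control lines, and each point is 1 array. In the first 7 panels the dexamethasone arrays at 8 h are the highest of each CRL1 line, and in LOC4323890 they are the lowest.

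Each difference has a dexamethasone arm (dexamethasone at 8 h minus dexamethasone at 4 h) and a mock arm (mock at 8 h minus mock at 4 h). Over all probe sets, 1296 were called in the dexamethasone arm (4.17%), 644 higher (2.07%) and 652 lower (2.1%). In the mock arm 49 were called (0.158%), 27 higher (0.0869%) and 22 lower (0.0708%). Of the 13 members 12 were called in the dexamethasone arm and 1 in the mock arm, and the arms share arrays with the difference. LOC4336260 was the exception. Its signals after dexamethasone went from 1300.2, 1208.7 and 1258.6 at 4 h to 1641.6, 1322.9 and 1849.2 at 8 h, and those after mock went from 553.6, 547.9 and 557.6 to 345.1, 249.7 and 320.8. At 8 h the mock signal was lower and the dexamethasone signal higher in every line. The mock arm was -0.87 (adjusted p = 0.0124, limma) and the dexamethasone arm 0.34 (adjusted p = 0.130), and the difference was 1.21 ± 0.16 (adjusted p = 0.0347, limma). In the control lines its mock signals were 572.8 and 581.6 at 4 h and 473.5 and 354.7 at 8 h, also lower at the later time. The mock arm was below 0 in all 12 members called higher, from -1.71 to -0.10. It was lowest in OsAffx.14853.1.S1_at, at -1.71 against 1.71 in the dexamethasone arm. Over all probe sets tested the median mock arm was 0.037, and the share below 0 was not counted. A low mock arm raises the difference by which these members were chosen, so their shared sign is not a separate result. The mock signals of LOC4325432 were also lower at 8 h than at 4 h in every line.

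**Figure D3:**
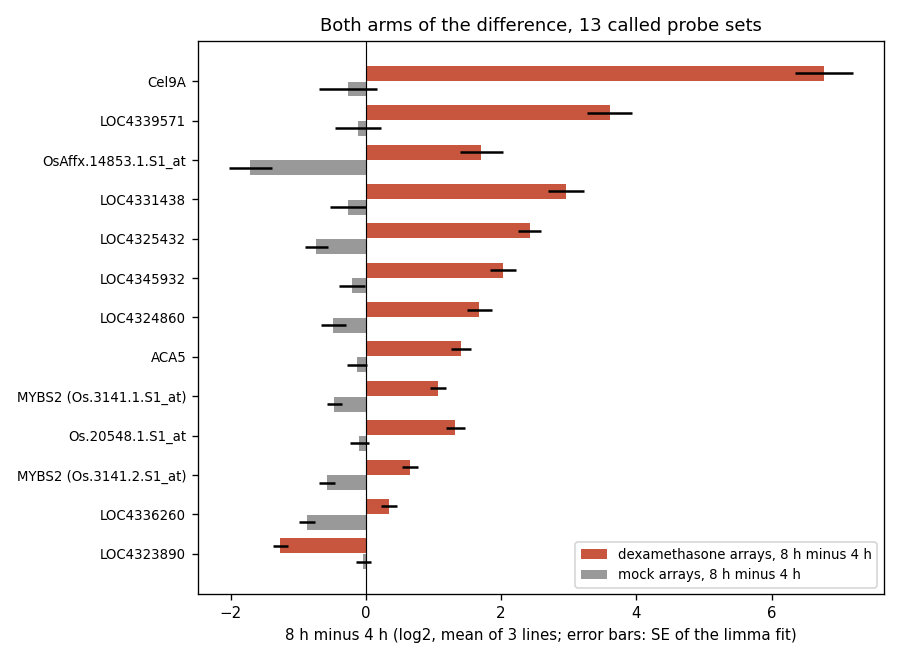
The 8 h minus 4 h value on the log2 scale (x axis) in the dexamethasone arrays (red) and in the mock arrays (grey) for the 13 called probe sets, as means over 3 CRL1 lines with the SE of the limma fit. The dexamethasone bar is the longer in most members, reaching 6.77 in Cel9A, while in LOC4336260 the mock bar of -0.87 is longer than the dexamethasone bar of 0.34.

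The control lines gave the background of the same measurement. No probe set was called for the difference in the control lines (0 of 32771, 0.0%; limma), where 877 had an unadjusted p under 0.05, fewer than the 1639 that 5% of the tests make, and the lowest adjusted p was 0.549. The difference in the CRL1 lines minus that in the control lines was called for 0 of 32771 probe sets (0.0%; limma), with 1462 at an unadjusted p under 0.05, also fewer than 1639, and a lowest adjusted p of 0.164, which belonged to LOC4325432. Within that fit of 20 arrays, the CRL1 lines alone gave 58 called (0.177%), 47 higher (0.143%) and 11 lower (0.0336%). No difference was therefore shown to be larger in the CRL1 lines than in the control lines at the threshold. For the 12 members called higher, the control difference ranged from -0.45 to 1.63 and the CRL1 difference exceeded it by 0.90 to 5.40. The MYBS2 probe set above had a control difference of 0.34. After mock its signals in control lines 1 and 2 were 704.0 and 796.4 at 4 h and 533.3 and 530.2 at 8 h. After dexamethasone control line 1 was nearly level, at 560.5 and then 557.9, and control line 2 was lower at 8 h, at 672.7 and then 547.6.

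The repeatability of the difference between lines was then described. A difference of over 1 in size was measured for 3662, 4658 and 4048 probe sets in CRL1 lines 1, 2 and 3, and for 3266 and 3548 in control lines 1 and 2. In pairs of CRL1 lines, 840, 865 and 1010 probe sets passed this size in the same direction and 557, 496 and 498 in opposite directions. In the pair of control lines 482 did so in the same direction and 563 in opposite directions. Across the probe sets tested, differences of pairs of CRL1 lines correlated at r = 0.099, 0.137 and 0.188 and those of the control lines at -0.055. All 3 CRL1 lines had a difference over 1 for 209 probe sets and under -1 for 102.

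Many more probe sets were called for the change at either time than for the difference. The change was called for 301 probe sets at 4 h (0.969%), of which 254 were higher (0.818%) and 47 lower (0.151%). At 8 h it was called for 3294 (10.6%), of which 1605 were higher (5.17%) and 1689 lower (5.44%). Both lists held 267, of which 229 were higher and 38 lower at both times. Of the 3027 probe sets called at 8 h and not at 4 h, 8 (0.264%) were called for the difference, so for most of them a later start was not shown. Leaving out 1 CRL1 line at a time gave 42 to 234 calls at 4 h and 909 to 2010 at 8 h.

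The arrays at 4 h and at 8 h are separate, so each time was read in the probe sets called at the other, within the same lines. Both changes were called in the same fit with a shared spread. A call at either time therefore also favours probe sets that were even across lines at the other. This raises the shares with the same sign in all 3 lines, in both directions of reading, so they are descriptions and not tests. Of the 1605 probe sets higher at 8 h, 1029 (64.1%) already had a positive change at 4 h in all 3 lines, against 14.5% of all tested. Of the 1689 lower at 8 h, 982 (58.1%) had a negative change at 4 h in all 3 lines, against 17.4%. Their median changes were 0.40 at 4 h and 1.05 at 8 h for the higher, and -0.27 and -0.81 for the lower. In the control lines the higher group had median changes of 0.01 at 4 h and 0.03 at 8 h, and the lower group of -0.099 and -0.054. Choice at 8 h favours large values at 8 h, so the step between these medians is not a test.

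In the other direction, 236 of the 254 probe sets higher at 4 h (92.9%) had a positive change in all 3 lines at 8 h, against 18.2% of all tested, and 44 of the 47 lower (93.6%) had a negative change, against 24.4%. The higher group went from a median change of 1.42 to 1.69. Its difference was positive in all 3 lines for 107 (42.1%, against 14.9% of all tested) and negative in all 3 for 35 (13.8%, against 17.8%). In the control lines its median changes were 0.13 and 0.05. The lower group stood at -0.97 at 4 h and -0.91 at 8 h in the CRL1 lines. In the control lines, without CRL1, the same 47 probe sets had median changes of -0.50 at 4 h and -0.17 at 8 h and a median difference of 0.26, so dexamethasone arrays were also lower than mock arrays there at 4 h. Choice at 4 h favours values far from 0 at 4 h, which lowers the differences of the higher group and raises those of the lower group.

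QHB, the rice relative of WOX5 expressed in the quiescent centre of roots, was among the early responders. Its signals after dexamethasone were 289.4, 179.1 and 101.2 at 4 h and 256.1, 342.0 and 186.4 at 8 h, and its 6 mock arrays lay between 13.9 and 28.3. The change was 3.27 at 4 h and 3.52 at 8 h. The difference was 0.25 ± 0.52, with a 95% interval of -0.89 to 1.40 (adjusted p = 0.930, limma), and it was negative in line 1 and positive in lines 2 and 3. 2 other early responders were chosen after their values were seen. CBL4, a calcineurin B-like calcium sensor, went from 2.77 to 4.23 with a difference of 1.46 ± 0.43 (adjusted p = 0.314). The proline transporter gene proT went from 1.58 to 2.16 with a difference of 0.58 ± 0.22 (adjusted p = 0.472), between 0.52 and 0.64 in the 3 lines.

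Of the 17 crown root regulators tested, 0 were called for the difference in either direction (limma). Their median difference was 0.08, against -0.03 for all genes tested. The list was matched by gene name, took in MHZ4, EIN2 and EIL1, and held no entry named CRL4, CRL5, CRL6 or EBR1. At an unadjusted p under 0.05 there were 3 above and 2 below 0. The HD-Zip gene hox14 had a difference of 2.96 ± 0.79 (adjusted p = 0.246), with signals after dexamethasone of 31.4, 53.1 and 7.4 at 4 h and 233.5, 661.0 and 110.2 at 8 h. Its lines spread widely, at 1.15, 3.58 and 4.15. MHZ4, known in rice for abscisic acid synthesis and the ethylene response of roots, had a difference of -1.06 ± 0.23 (adjusted p = 0.154), with signals of 95.5, 54.3 and 74.6 after dexamethasone at 8 h and 105.8 to 211.9 on the other 9 CRL1 arrays. RR2, a type A cytokinin response regulator that WOX11 represses, had a change of -0.71 at 4 h (adjusted p = 0.0613) and -1.26 at 8 h (adjusted p = 5.05e-04). Its difference was -0.55 ± 0.21 (adjusted p = 0.492). The change of WOX11 was -0.91 at 4 h and -1.28 at 8 h, and its difference was -0.37 ± 0.35 (95% interval -1.14 to 0.41). For SHR1 and SCR1, GRAS factors that pattern the root, the differences were -0.35 ± 0.24 and -0.35 ± 0.34.

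**Figure D4:**
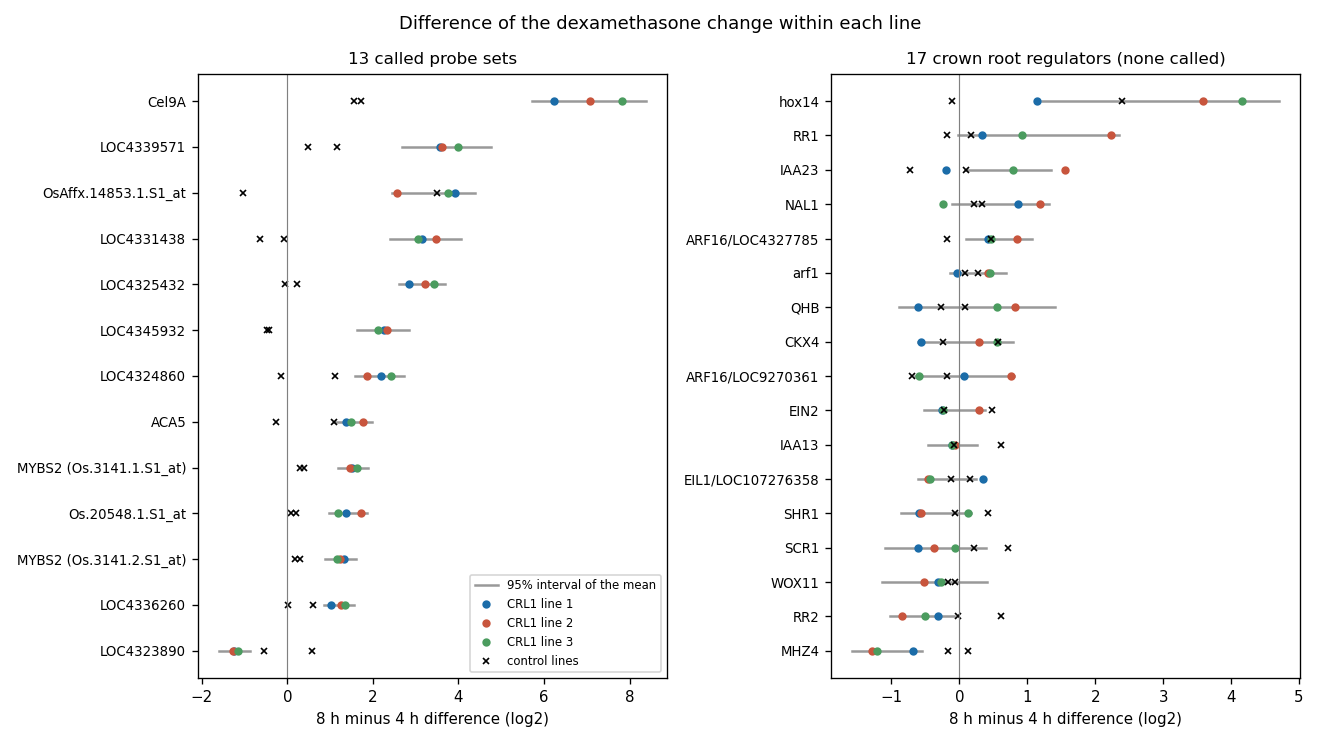
The 8 h minus 4 h difference on the log2 scale (x axis) in each CRL1 line (coloured circles) and each control line (crosses), with the 95% interval of the CRL1 mean (grey bars), for the 13 called probe sets and for 17 crown root regulators. The 3 CRL1 lines lie close together in most called members, while in hox14 they run from 1.15 to 4.15 and in QHB they fall on both sides of 0.

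Among named genes that were not called, the smallest p-values in the lower direction belonged to BCL1, ER2, IAA7, CSLA9 and PCF3. IAA7, an Aux/IAA repressor of auxin signalling, read 78.3, 56.6 and 85.6 after dexamethasone at 8 h and 119.4 to 208.9 on its other 9 CRL1 arrays. Its difference was -1.15 ± 0.20 (adjusted p = 0.0841, limma). ER2, of the ERECTA family of receptor kinases, had a difference of -1.06 ± 0.19 (adjusted p = 0.0841), with signals of 235.8, 211.6 and 201.4 after dexamethasone at 8 h and 445.8 to 743.9 otherwise. In both genes the late dexamethasone arrays did not overlap the others. The genes were picked by small p-values from these same arrays, so the gap is not separate support. Its share over all probe sets was not counted. BCL1 had a difference of -1.31 ± 0.20 (adjusted p = 0.0585), CSLA9 of the cellulose synthase-like family -1.08 ± 0.20 (adjusted p = 0.0967) and the TCP factor gene PCF3 -1.01 ± 0.21 (adjusted p = 0.147). In the higher direction ACC2 had a difference of 1.19 ± 0.20 (adjusted p = 0.0733), and its signals after dexamethasone were 2651.5, 2641.4 and 1742.9 at 4 h and 4175.7, 6415.4 and 4575.8 at 8 h. FTSH6, an FtsH-type protease gene, had 3.24 ± 0.56 (adjusted p = 0.0786) from signals of at most 50.9.

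Gene lists are given by counts and medians beside those over 16272 genes tested, of which 9 were called higher and 1 lower for the difference, with a median difference of -0.03. Of these genes 15.6% had a positive and 18.6% a negative difference in all 3 CRL1 lines, and at an unadjusted p under 0.05 there were 799 above and 852 below 0. In the list of histone and DNA replication genes, 0 of 34 were called, the median difference was 0.34 (0.15, 0.44 and 0.34 in the 3 lines), and 19 (55.9%) were positive and 0 negative in all 3 lines. The median change of the list was -0.04 at 4 h and 0.32 at 8 h, and its median difference in the control lines was 0.16. At an unadjusted p under 0.05 there were 9 genes of this list above 0 and 0 below. The replicative helicase subunit gene MCM5 read 608.4, 920.4 and 451.2 after dexamethasone at 8 h and 183.8 to 385.3 on the other 9 CRL1 arrays. Its difference was 1.19 ± 0.24 (adjusted p = 0.129, limma). RFC1, the large subunit gene of the clamp loader, had a difference of 0.87 ± 0.18 (adjusted p = 0.128). Of 34 cyclins and cyclin-dependent kinases 0 were called, with 3 above and 3 below 0 at an unadjusted p under 0.05, 8 positive and 5 negative in all 3 lines and a median of -0.03.

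Of 9 cytochrome P450 genes of hormone metabolism, 0 were called, 5 (55.6%) were positive and 0 negative in all 3 lines, and the median difference was 0.48. At an unadjusted p under 0.05 there were 4 above and 0 below 0. CYP734A4 and CYP734A6 inactivate brassinosteroids. CYP734A4 read 136.6, 157.7 and 72.7 after dexamethasone at 4 h and 393.6, 678.7 and 334.3 at 8 h, with 20.8 to 31.8 on its mock arrays. Its difference was 1.89 ± 0.42 (adjusted p = 0.154, limma). The changes at the 2 times did not overlap, a trait whose share over all probe sets was not counted. The difference was 1.45 ± 0.35 for CYP734A6 and 1.77 ± 0.40 for CYP707A5, which breaks down abscisic acid. It was 1.22 ± 0.42 for CYP85A1, which acts late in brassinosteroid synthesis. GA20OX3, a gibberellin 20-oxidase gene, had a difference of 1.09 ± 0.21 (adjusted p = 0.107).

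Auxin-related lists held genes with differences on both sides of 0. Of 25 Aux/IAA genes 0 were called, with 6 positive and 8 negative in all 3 lines and a median of -0.09. Of 17 auxin response factor genes 0 were called, with a median of 0.08. Of 9 GH3 and SAUR genes 0 were called, and 3 were positive and 1 negative in all 3 lines. At an unadjusted p under 0.05 the Aux/IAA list had 5 genes above and 5 below 0, the response factors 1 and 1, and GH3 and SAUR 3 and 1. GH3-8, whose enzyme conjugates auxin to amino acids, read 736.0, 902.0 and 371.2 after dexamethasone at 4 h and 1362.3, 2021.9 and 783.9 at 8 h. Its difference was 1.51 ± 0.32 (adjusted p = 0.147, limma), and in every line the signal was higher at 8 h. GH3.4 had a change of -0.21 at 4 h and 1.32 at 8 h, with a difference of 1.53 ± 0.31 (adjusted p = 0.128) and 1.52, 1.60 and 1.47 in the 3 lines. ACO1, which makes ethylene from its precursor, read 1245.6, 399.9 and 968.0 after dexamethasone at 8 h and 2690.9 to 3634.3 on its other 9 CRL1 arrays. Its difference was -2.05 ± 0.44 (adjusted p = 0.149), largest in size in line 2 at -3.18.

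Cell wall lists held the called Cel9A among 12 endo-glucanase genes, of which 1 was called, 5 were positive and 1 was negative in all 3 lines (median 0.33). Of 25 expansin and xyloglucan enzyme genes 0 were called, with 5 above and 3 below 0 at an unadjusted p under 0.05, 9 positive and 6 negative in all 3 lines and a median of 0.095. The expansin genes EXPB6 and EXPA16 had differences of 0.75 ± 0.16 (adjusted p = 0.147, limma) and 1.12 ± 0.25 (adjusted p = 0.164), and EXPA6 had -1.47 ± 0.35 (adjusted p = 0.185). EXPA6 read 382.1, 211.6 and 176.3 after dexamethasone at 8 h and 643.2 to 1143.7 on its other 9 CRL1 arrays. Of 25 cellulose synthase and related genes 0 were called, with 1 above and 3 below 0 at an unadjusted p under 0.05, and 1 positive and 5 negative in all 3 lines.

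The lists of other regulators also had 0 called for the difference. They were 30 HD-Zip and Roc homeobox genes (median 0.08), 23 cytokinin response and metabolism genes (-0.05), 15 MADS-box genes (0.14), 38 heat shock genes (-0.05), 9 ERF and AP2 genes (0.20), 6 WRKY genes (0.095), 6 NAC genes (-0.09), 4 WOX genes (0.14) and 3 GRAS genes (-0.35). Lists of 2 or 3 genes, also with 0 called, were the auxin carriers (3 genes), gibberellin oxidases (2) and ethylene synthesis genes (2). At an unadjusted p under 0.05 each of these lists held between 0 and 5 genes above 0 and between 0 and 4 below. HSP26.2, a small heat shock protein gene, had a change of 1.25 at 4 h and 2.29 at 8 h and a difference of 1.04 ± 0.27 (adjusted p = 0.225, limma). Its probe set is also of the _s_at type. Of the 38 heat shock genes, 3 (7.9%) were positive and 7 (18.4%) negative in all 3 lines.

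Markers of tissues and of the time of day were read in the same way, with 0 called in each list and, at an unadjusted p under 0.05, between 0 and 2 genes above and between 0 and 3 below 0. For 6 KNOX genes of the shoot meristem the median difference was -0.44, with 0 positive and 3 negative in all 3 lines, and it was -0.09 in the control lines. OSH3 had the lowest p among them, with -0.91 ± 0.28 (adjusted p = 0.331, limma). For 14 markers of root tissue the median was -0.28 in the CRL1 lines and -0.43 in the control lines, with 1 positive and 5 negative in all 3 CRL1 lines. The medians were -0.11 for 8 leaf and photosynthesis genes, -0.03 for 27 vascular genes, 0.24 for 6 epidermal Roc genes and 0.02 for 6 clock genes. Like the KNOX list, the leaf and photosynthesis list had 0 positive in all 3 lines. The part of these shifts in the called differences was not tested.

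**Figure D5:**
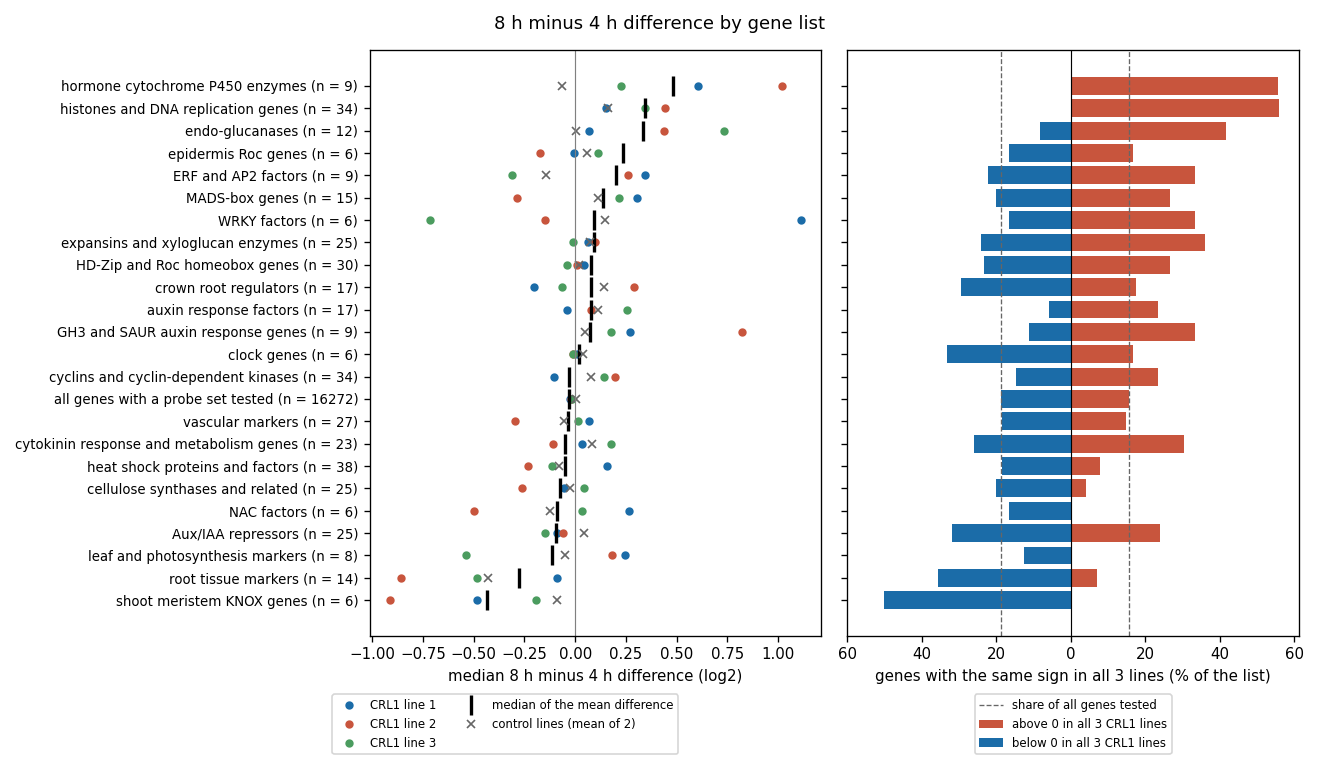
Left, the median 8 h minus 4 h difference on the log2 scale of each gene list with at least 5 genes tested, in each CRL1 line (circles), of the mean of the 3 lines (black bars) and of the control lines (crosses). Right, the percentage of each list above 0 (red) or below 0 (blue) in all 3 CRL1 lines, with dashed lines at the shares of all genes tested, 15.6% and 18.6%. Replication genes and hormone P450 genes reach 55.9% and 55.6% above 0 in all 3 lines, with none below. The short lists of KNOX, NAC, and leaf and photosynthesis genes (6, 6 and 8 genes) have none above 0 in all 3 lines.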

How the data were processed

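The deposited intensity values are MAS5 signals, for which the submitters' processing notes name Affymetrix Expression Console. The deposited arrays share a 2% trimmed mean of 100. Versions and array build are not given in the sources used here. Of 57381 probe sets 123 control (AFFX) probe sets were left out. Genes came from the platform annotation, with names updated by RefSeq (ASM3414082v1), and 22436 probe sets had 1 gene, 95 several and 34727 none listed. Values were log2(signal + 1.7), the offset being the 20th percentile of all signals, which understates folds of dim transcripts. Probe sets above their array's median on at least 3 of the 12 CRL1 arrays were tested with limma 3.58.1 in R 4.3.3, using 4 group means, line as a fixed block (6 residual degrees of freedom), a variance trend and Benjamini-Hochberg adjustment over all tested. Control lines were fitted over 20 arrays (9 residual degrees of freedom). Errors beside log2 values are SEs of the fit. Simulated data held 100 differences each of size 1, 2 and 4 among 31057 probe sets, of which 37%, 78% and 97% were recovered, with 15 false calls beside them. The noise was normal, with the spread that the fit itself had estimated. These rates hold for such noise and do not give the power in the real arrays. The labels pair arrays by line, and residual correlations ran from -0.054 to 0.245 within lines (18 pairs) and from -0.225 to 0.135 between lines (36 pairs). By rule, named genes were the 15 largest called in each direction (the 5 smallest p where fewer than 5 were called), the 4 largest called known by locus number, every crown root regulator and up to 4 genes per list with the smallest p, and those that carry the account are printed. LOC4336260, LOC4324860, the second MYBS2 probe set and both probe sets without a gene fell outside the rule and are given so that all 13 called are shown. Members, lists and tests were chosen with earlier results of these data known. Alternatives changed the offset, filter, scaling, block, arrays, weights and unit of the test, and left out each line. Plots used matplotlib 3.10.9.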

Additional observations from a re-analysis of the deposited data

Results flagged for a closer look

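The 13 probe sets whose dexamethasone change differed between 4 h and 8 h by the test of the difference were singled out. On the log2 scale the differences were 7.04 for Cel9A, 3.72 for LOC4339571, 3.42 for OsAffx.14853.1.S1_at, 3.22 for LOC4331438, 3.16 for LOC4325432, 2.24 for LOC4345932 and 2.16 for LOC4324860. They were 1.54 for ACA5, 1.53 and 1.24 for the 2 probe sets of MYBS2, 1.42 for Os.20548.1.S1_at, 1.21 for LOC4336260 and -1.23 for LOC4323890.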

How the results depend on the processing

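The count of 13 called differences became 30 with an offset at the median signal, 30 with quantile normalization, 28 with array weights and 58 with all 20 arrays and a replicate block. It was 3 with no replicate block, 2 with 3 changes against 3 unpaired, 126 on the 3 within-line differences and 0 on those with no variance trend, an alternative chosen after seeing the data, as were those of the arms. It stayed at 13 with no offset and was 9 with no filter and 9 with the stricter filter. Leaving out 1 CRL1 line gave 0 to 1 for the difference, 42 to 234 for the change at 4 h (301) and 909 to 2010 for that at 8 h (3294), and 13 to 17 for the mock arm (49) and 138 to 699 for the dexamethasone arm (1296). Such a fit has fewer arrays. The change at 4 h gave 638 with array weights, the mock arm 18 with all 20 arrays and 77 with array weights, and the dexamethasone arm 863 with no replicate block. The difference in CRL1 lines minus that in control lines gave 1 call with an offset at the median signal and 0 otherwise, and the control difference 0 throughout. All 13 kept their sign wherever they were tested. Cel9A was not tested when a CRL1 line was left out, since it passed the filter through 3 arrays. Signs that changed were those of small differences. Leaving out 1 CRL1 line gave -0.261 to 0.415 for ARF16 (LOC9270361), -0.247 to 0.023 for EIN2 (0.019 without line 3), -0.028 to 0.687 for QHB and -0.138 to 0.422 for CKX4. It gave -0.906 to 0.193 for PIN4, -0.128 to 0.207 for PIN3A, -0.086 to 0.357 for WOX8, -0.141 to 0.418 for WOX6, -0.016 to 0.747 for NAC4, -0.177 to 0.443 for NAC3 and -0.189 to 0.094 for SCL7. Array weights gave -0.019 for ARF16 (LOC9270361) and 0.031 for SCL7, and quantile normalization 0.010 for SCL7. The cause was not tested.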
